A study of Mus musculus with 11 samples.

Results

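The neurotrophin system was followed across the cell classes of the mouse hindbrain and spinal cord in the 6 genes chosen by symbol, out of 25827 genes in the count matrices. The ligands were Ntf3 (neurotrophin-3) and Bdnf (brain-derived neurotrophic factor). The receptor kinases were Ntrk2 (TrkB), which binds Bdnf, and Ntrk3 (TrkC), which binds neurotrophin-3. Ngfr (the p75 receptor) and Sort1 (sortilin) completed the group. All 6 were found in the files of all 11 libraries.

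Male mice aged 8 to 12 weeks gave cerebellum, cervical spinal cord and the brainstem of 1 hemisphere, which were pooled. Nuclei were sorted by a DNA stain and sequenced with a 10x Genomics droplet kit. All mice were Il12rb2fl/fl, with loxP sites in the gene of an interleukin-12 receptor chain. NestinCre/+ Il12rb2fl/fl mice carried in addition a Cre recombinase whose Nestin promoter works in neural precursors and so reaches neurons and macroglia but not microglia, and Il12rb2fl/fl littermates were the controls. The multiple sclerosis model experimental autoimmune encephalomyelitis (EAE) was induced with 200 µg of a myelin oligodendrocyte glycoprotein peptide in complete Freund's adjuvant together with pertussis toxin, and tissue was taken on day 10. There were 4 libraries of Il12rb2fl/fl mice with EAE (fl EAE), 4 of NestinCre/+ Il12rb2fl/fl mice with EAE (NestinCre EAE), 2 of Il12rb2fl/fl mice without immunization (fl naive) and 1 of a NestinCre/+ Il12rb2fl/fl mouse without immunization (NestinCre naive), for which there is no replicate. Sequencing run 1 gave EAE replicates 1 to 3 of each genotype, run 2 gave fl naive 2 with EAE replicate 4 of each genotype, and run 3 gave the remaining naive libraries, fl naive 3 and NestinCre naive 2. The labels do not tie each library to a mouse, so p-values describe the spread between these libraries.

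Neurotrophins are secreted as precursors that proteases such as furin cleave. The mature forms act through Trk receptor kinases, which signal through adaptors, Ras and phosphatidylinositol kinases and support the survival, growth and synapses of neurons. Sortilin binds the precursors and forms a receptor with p75, and it also sorts cargo inside cells. In the cerebellum Bdnf and neurotrophin-3 are classic trophic factors of granule cells and Purkinje cells.

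The files held 13120 to 22951 barcodes and 40761007 to 86063464 unique molecular identifiers (UMIs) per library, and 161487 nuclei with a median of 2390 UMIs were kept. Clusters were named from marker genes, and granule cells, the small excitatory neurons of the cerebellar cortex, made up 66.3% of kept nuclei. In the 11 marker-named classes tested, every marker of the class reached 20 UMIs per 1000000 UMIs of the class (CPM). That level was part of the naming rule, and granule cell markers also reached it in microglia (23.2 to 195 CPM). It is therefore no separate support for the names. The remaining 2 classes tested were the clusters with Slc17a6, which marks glutamatergic neurons, and the clusters with Gad1 and Gad2, which mark GABAergic neurons. Both took neuron clusters outside the named classes, and by the naming rule clusters that matched Golgi cells of the cerebellum were pooled there. Between 47 and 140 cell barcodes were shared by any pair of libraries. Il12rb2, the targeted gene, had 14.3 to 22.0 CPM in granule cells of fl EAE mice and 10.4 to 20.9 CPM in those of NestinCre EAE mice (log2 difference -0.05, SE 0.17, edgeR adjusted p = 0.975). Counts over the whole gene do not show whether the loxP-flanked part was lost, so the labels could not be checked in this way.

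The first question was which cells carried each transcript. Ntf3 was concentrated in granule cells and unipolar brush cells, and Bdnf in these cells and in molecular layer interneurons. Ntrk2 was highest in astrocytes and also high in most neurons, oligodendrocyte progenitors and Bergmann glia. Ntrk3 was highest in granule cells, followed by leptomeningeal cells, unipolar brush cells and oligodendrocyte progenitors. Sort1 was highest in mature oligodendrocytes and microglia. Ngfr was sparse in every class. Levels below are means ± SD over the 11 libraries, and neighbours in the order of 1 gene's levels were compared with an exact two-sided sign-flip permutation test within libraries, adjusted by the Benjamini-Hochberg method over 72 pairs of neighbours.

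Ntf3 (ENSMUSG00000049107, chromosome 6, 126078375 to 126143873 on GRCm39, minus strand) reached 62.0 ± 25.5 CPM in unipolar brush cells, excitatory interneurons of the granular layer, from 113 UMIs. In granule cells it reached 35.0 ± 9.15 CPM from 9049 UMIs. Unipolar brush cells lay above granule cells in 10 of 11 libraries (exact permutation test, adjusted p = 0.0117), and granule cells lay above Bergmann glia, the next class at 6.54 CPM, in 11 of 11 (exact permutation test, adjusted p = 0.00781). No further neighbours could be told apart. Granule cell markers stood at 12.2% to 26.9% of their granule cell level in microglia and at 11.5% to 20.8% in mature oligodendrocytes, nuclei that should lack them. Ntf3 in mature oligodendrocytes stood below that share of its own granule cell level in 11 of 11 libraries, and in microglia in 10 of 11. The share differed between genes, with Ntrk3 at 1.75% to 6.27% of its granule cell level in mature oligodendrocytes. The marker share is therefore not a measure of neuronal RNA for every gene.

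Bdnf (ENSMUSG00000048482, chromosome 2, 109505045 to 109557475, plus strand) was at 51.2 ± 19.4 CPM in unipolar brush cells and 45.8 ± 6.42 CPM in granule cells, which could not be told apart (exact permutation test, adjusted p = 0.913). Molecular layer interneurons, the inhibitory neurons of the molecular layer, followed at 34.7 ± 10.5 CPM, below granule cells in 11 of 11 libraries (exact permutation test, adjusted p = 0.00781). The Slc17a6 neuron clusters came next at 26.7 ± 4.09 CPM. Purkinje cells, the output neurons of the cerebellar cortex, had the lowest Bdnf level of the 13 classes at 3.10 CPM, from 26 UMIs, below mature oligodendrocytes at 8.22 CPM (exact permutation test, adjusted p = 0.0188). Ntf3 in Purkinje cells was at 2.51 CPM.

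Ntrk2 (ENSMUSG00000055254, chromosome 13, 58954176 to 59281784, plus strand) was highest in astrocytes at 912 ± 129 CPM, above molecular layer interneurons at 671 ± 44.4 CPM in 11 of 11 libraries (exact permutation test, adjusted p = 0.00781). The Gad1 and Gad2 neuron clusters, unipolar brush cells, oligodendrocyte progenitors, Slc17a6 neuron clusters, Bergmann glia and granule cells formed a plateau between 509 and 433 CPM in which no neighbours could be told apart. Bergmann glia, the radial astrocytes of the cerebellum, had 452 ± 61.9 CPM. Below the plateau, Purkinje cells had 49.9 CPM and mature oligodendrocytes 37.3 CPM of Ntrk2.

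Ntrk3 (ENSMUSG00000059146, chromosome 7, 77825707 to 78387760, minus strand) was highest in granule cells at 1238 ± 97.6 CPM. Leptomeningeal cells or fibroblasts, the cells of the brain coverings, followed at 1003 ± 295 CPM, below granule cells in 10 of 11 libraries (exact permutation test, adjusted p = 0.0352). Unipolar brush cells at 830 CPM and oligodendrocyte progenitors at 801 ± 52.7 CPM could not be told apart (exact permutation test, adjusted p = 0.849). Both astroglial classes held 648 CPM (Bergmann glia) and 613 CPM (astrocytes). Molecular layer interneurons had only 69.9 CPM and mature oligodendrocytes 54.5 CPM of Ntrk3, so interneurons were high in Ntrk2 and low in Ntrk3. In both classes, and in microglia at 76.6 CPM, Ntrk3 stood below the share that granule cell markers kept in the same nuclei, in 11 of 11 libraries each. In leptomeningeal cells it stood above that share in every library.

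Ngfr (ENSMUSG00000000120, chromosome 11, 95459638 to 95478561, minus strand) had 322 UMIs in all kept nuclei of the 11 libraries, or 0.584 ± 0.145 CPM. Its highest levels among the 13 classes were 7.52 CPM in leptomeningeal cells from 4 UMIs and 5.06 ± 6.20 CPM in Purkinje cells from 26 UMIs. Ngfr had 0 UMIs in astrocytes, Bergmann glia and border-associated macrophages, which allows up to 0.695, 1.17 and 7.31 CPM over the 11 libraries (3 counts of the total, counting error only). No neighbours in its order could be told apart.

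Sort1 (ENSMUSG00000068747, chromosome 3, 108191285 to 108268842, plus strand) was highest in mature oligodendrocytes and microglia. Mature oligodendrocytes had 261 ± 50.2 CPM, above microglia at 171 ± 27.9 CPM in 11 of 11 libraries (exact permutation test, adjusted p = 0.00781), and microglia stood above Bergmann glia at 132 CPM (exact permutation test, adjusted p = 0.0331). Purkinje cells had 125 CPM and the other neuron classes 94.8 to 37.1 CPM, with granule cells at the lower end. Oligodendrocyte progenitors had the lowest level, 19.6 ± 7.67 CPM, below granule cells in 10 of 11 libraries (exact permutation test, adjusted p = 0.0117). Within the oligodendrocyte lineage Ntrk3 and Sort1 were thus ordered in opposite ways, with Ntrk3 high in progenitors and Sort1 high in mature cells.

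**Figure D1:**
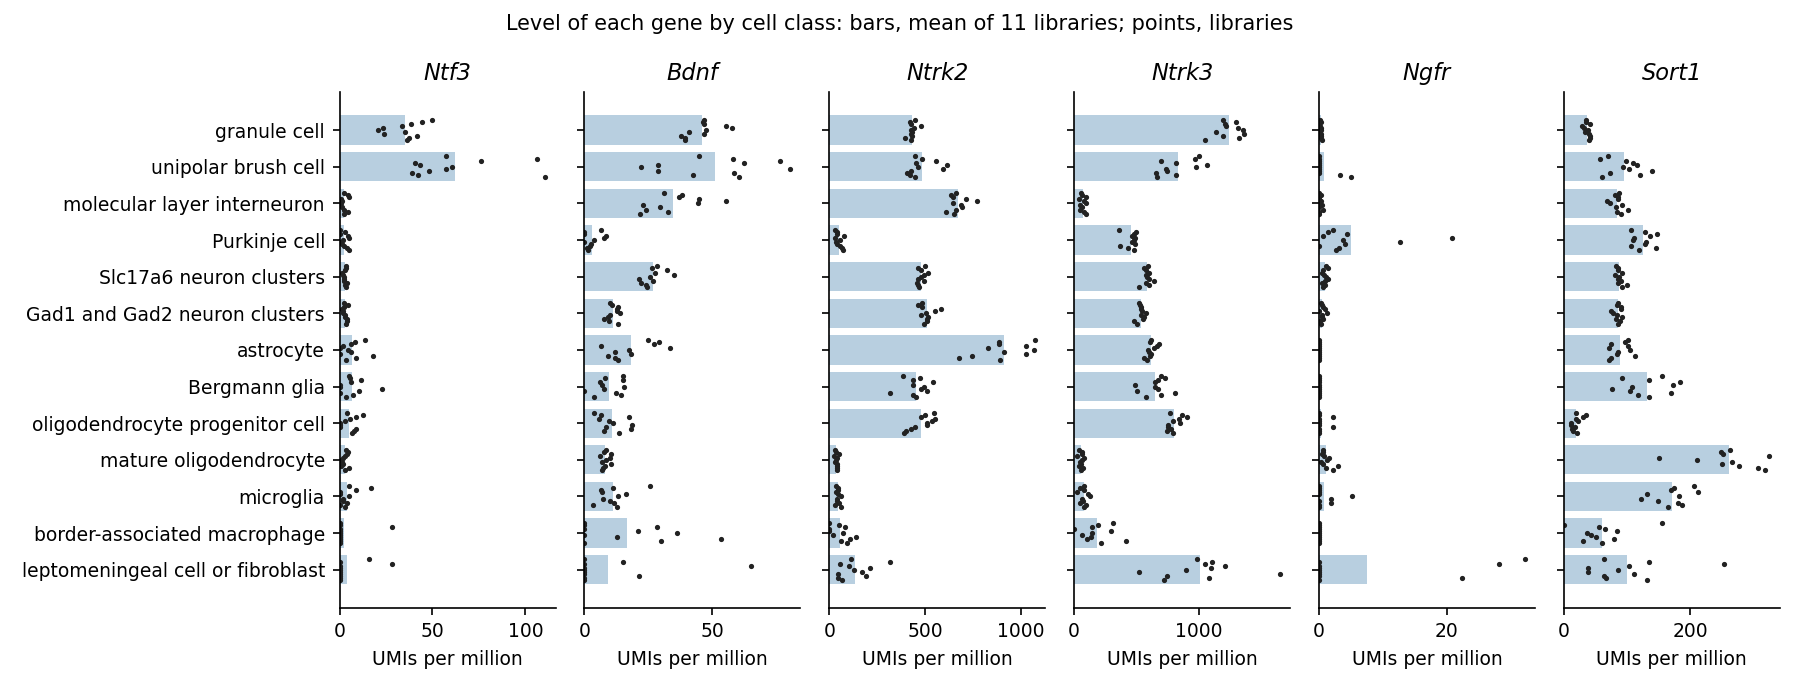
Level of each of the 6 genes by cell class, in CPM on linear axes that differ between genes, with 1 point per library and bars for the mean of the 11 libraries. Ntf3 is highest in unipolar brush cells (62.0 CPM) and granule cells (35.0 CPM), Ntrk2 in astrocytes (912 CPM), Ntrk3 in granule cells (1238 CPM) and Sort1 in mature oligodendrocytes (261 CPM).

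The genes whose class means were most like those of each member were listed by Pearson's r of log2(CPM + 1) over the 13 classes, among 11959 genes that reached 20 CPM in at least 1 class. The points share libraries and depth, and no test was made. For Ntf3 these included Ramp3 (r = 0.931) and Mpp4 (0.914), and for Bdnf Pigb (0.917), Napb (0.917) and Tmem132a (0.905). For Ntrk2 they were Apba2 (0.957), Syn2 (0.952) and Adgrl1 (0.950), and for Ntrk3 Lrrk2 (0.864), Kcnd2 (0.824) and Chrd (0.820). For Ngfr they were Tspan11 (0.891), Trabd2b (0.869) and Wnt16 (0.865), and for Sort1 Art3 (0.753), Lonp2 (0.746) and Prkdc (0.745). Sort1 had no gene with a pattern as close as those of the other members.

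The main comparison asked whether deletion of Il12rb2 in the neural lineage went with other neurotrophin levels at day 10 of EAE. Ntf3 in granule cells lay below the fl EAE range in 3 of 4 NestinCre EAE libraries without passing the test. Its very low counts in mature oligodendrocytes, which met the filter on low counts only through the fl EAE libraries, passed the test. Bdnf, Ntrk2, Ntrk3 and Sort1 passed it in no class, and Ngfr could be tested in none. Of the 78 pairs of a member and a class, 42 had enough UMIs to be tested with edgeR's quasi-likelihood test with sequencing run in the model, and 1 passed the threshold of 0.05 on the Benjamini-Hochberg adjusted p (2.38%), against 1.06% of all gene and class pairs tested.

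Ntf3 in granule cells was at 49.8, 44.6, 38.3 and 33.8 CPM in fl EAE replicates 1 to 4, a mean of 41.6 ± 7.05 CPM (SD, n = 4) from 4237 UMIs. In NestinCre EAE replicates 1 to 4 it was at 23.4, 20.5, 35.1 and 24.2 CPM, a mean of 25.8 ± 6.38 CPM from 2121 UMIs. Replicate 3 of NestinCre EAE lay inside the fl EAE range and the other 3 lay below it, so the groups overlapped in 1 library. The naive libraries lay inside the fl EAE range, at 41.6 and 37.5 CPM in fl naive and 36.3 CPM in NestinCre naive. The log2 difference between genotypes was -0.70 (SE 0.16, edgeR quasi-likelihood test with Benjamini-Hochberg adjusted p = 0.0823), which did not pass the threshold. By p it was number 291 of 15765 genes tested in granule cells, of which 214 (1.36%) passed, 201 of them higher and 13 lower in NestinCre EAE, and 3 passed without fl EAE 1. The call turned on the tool: the adjusted p was 0.00269 with DESeq2, 0.0361 with no filter on low counts and 0.0441 without NestinCre EAE 3, and 0.253 at the highest when another library was left out. Within run 1 the log2 difference was -0.72 (edgeR adjusted p = 0.112), and run 2 held 1 library of each group. The study's text names Ntf3 as lower in granule cells of NestinCre mice from these same samples. It also lists Ntf3 in a gene module that passed its per-mouse DESeq2 test in granule cells and molecular layer interneurons. The value here is therefore no independent evidence of its direction.

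**Figure D2:**
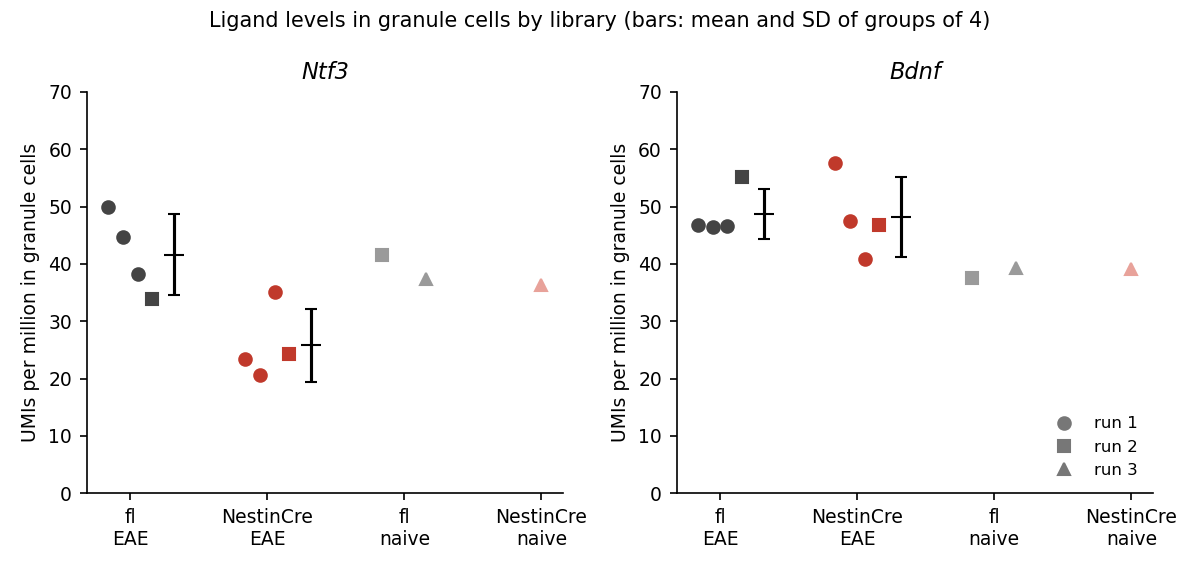
Ntf3 and Bdnf in granule cells, in CPM, 1 point per library with its shape by sequencing run, and the mean and SD of the groups of 4. Ntf3 lies at 33.8 to 49.8 CPM in fl EAE and 20.5 to 35.1 CPM in NestinCre EAE, while Bdnf overlaps between the groups.

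Ntf3 was also compared within granule cell clusters. Granule cells formed 13 clusters, of which 11 had at least 10 nuclei in every EAE library and held 105747 of 107116 granule nuclei. Mean Ntf3 levels in these 11 lay between 11.8 and 54.4 CPM, and in 11 of 11 the mean of the NestinCre EAE libraries lay below that of the fl EAE libraries, with log2 ratios from -0.92 to -0.40 and a median of -0.54. With each of the 11 clusters given the same weight, an alternative added after the data were seen, Ntf3 was at 42.4 ± 6.48 CPM in fl EAE and 26.9 ± 5.88 CPM in NestinCre EAE (exact two-sided permutation test, p = 0.0571, where 0.0286 is the smallest p that 4 against 4 libraries allow). Ntrk3 in the same clusters had log2 ratios from 0.01 to 0.23, none of them lower in NestinCre EAE, and Bdnf was lower in 7 of 11. The clusters share their libraries, so they are not replicates. The 2 clusters left out, 1 of them led by interferon-response genes, together had 28.4 CPM of Ntf3 over the fl EAE libraries (24 UMIs) and 16.3 CPM over the NestinCre EAE libraries (50 UMIs), and were too small to compare by library.

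**Figure D3:**
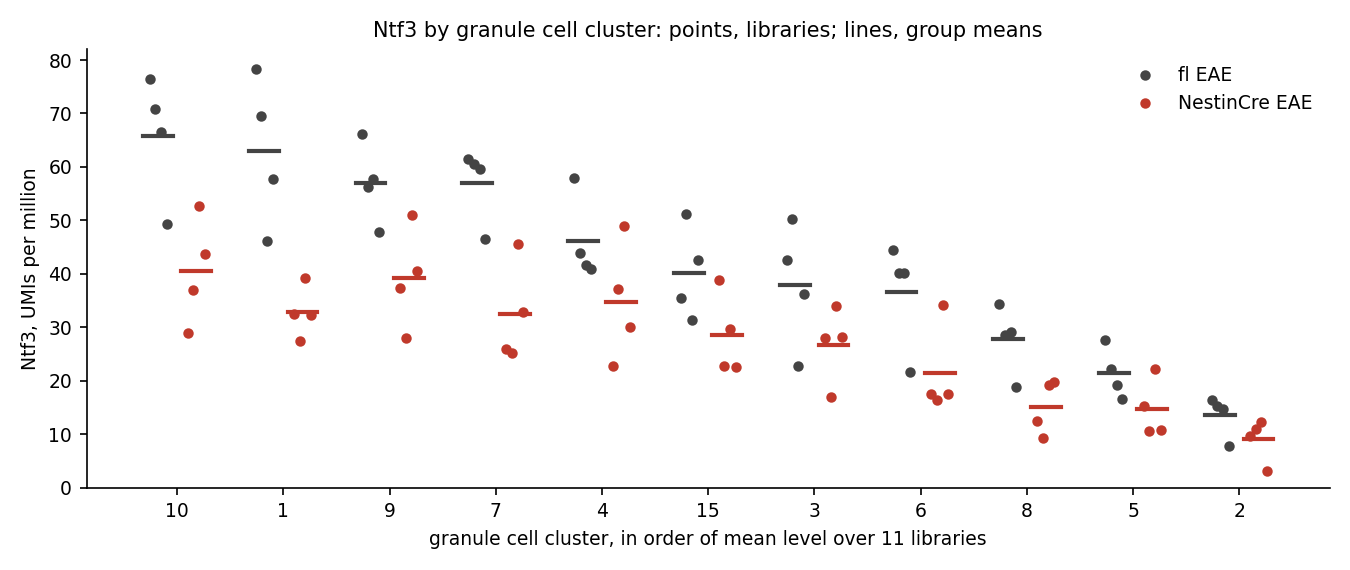
Ntf3 in 11 of the 13 granule cell clusters, those with at least 10 nuclei in every EAE library, in CPM, with 1 point per EAE library and a line for the mean of the 4 libraries of each group. Each of the 11 clusters has the lower mean in NestinCre EAE, at log2 ratios between -0.92 and -0.40.

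The share of granule cells with an Ntf3 UMI was compared per nucleus. With each nucleus thinned to 1000 UMIs, 3.90% ± 0.677 of granule cells in fl EAE mice and 2.46% ± 0.721 in NestinCre EAE mice had an Ntf3 UMI (exact two-sided permutation test, p = 0.0857, adjusted p = 1.00 over 78 tests). Without thinning the shares were 8.34% and 4.99%, with 4 of 4 NestinCre EAE libraries below every fl EAE library (exact permutation test, p = 0.0286, adjusted p = 0.495). Thinned microglia, set as the background class, had 1.25% in fl EAE and 0.261% in NestinCre EAE from 7 and 2 nuclei. Whether microglia make the transcript themselves was not tested. The median depths were 2188 and 1988 UMIs in granule cells and 1974 and 2144 UMIs in microglia, and 3246 and 3170 granule nuclei under 1000 UMIs were left out. With 0.0286 as the smallest p, adjustment over 78 tests left almost no room for a share to pass, and 2 thinned shares had an unadjusted p under 0.05, Ntf3 in mature oligodendrocytes and Ntrk3 in Bergmann glia.

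Other genes also stood apart between the groups in granule cells. Of 15872 genes with at least 10 UMIs in 4 or more of the 8 EAE libraries, 3.72% were higher and 1.4% lower in every NestinCre EAE library than in any fl EAE library. Such a share of genes without overlap was not computed in other classes or between EAE and naive libraries. The interferon-response genes B2m, H2-K1, H2-D1, Irgm2, Gbp6, Nlrc5 and Igtp had higher values in every NestinCre EAE library than in any fl EAE library. B2m, the light chain of class I molecules, was at 5.81 to 20.6 CPM in fl EAE and 38.6 to 109 CPM in NestinCre EAE, and H2-K1, a class I heavy chain, was at 1.74 to 7.97 CPM and 22.2 to 68.2 CPM. Of 8 genes that mark granule cell subsets or positions, Ror1 (403 to 428 against 329 to 379 CPM) and Chrm3 (29.8 to 39.0 against 23.0 to 29.3 CPM) did not overlap between the groups and the other 6 did. Svep1 overlapped narrowly, at 185.4 to 205.5 against 167.6 to 185.5 CPM. Mean levels of Svep1, Ror1 and Chrm3 were lower in NestinCre EAE, and those of Nr4a2, Galntl6, Ebf1, Gprin3 and Rasgrf1 were higher. The 8 genes summed to 1642 to 1758 CPM in fl EAE and 1565 to 1854 CPM in NestinCre EAE. Such changes offset each other in a sum, which cannot show a shift between subsets. The part of these differences in the Ntf3 values was not tested. In granule nuclei with a Svep1 or Ror1 UMI, Bdnf was at 51.3 CPM against 36.6 CPM in those without (11 of 11 libraries, exact permutation test, adjusted p = 0.00293), while Ntf3 was at 36.0 against 33.4 CPM (9 of 11, exact permutation test, adjusted p = 0.0176). Those nuclei were also deeper, with a median of 2469 against 1778 UMIs.

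Mature oligodendrocytes gave the 1 member that passed the test. Ntf3 there was at 3.48, 4.62, 4.25 and 3.10 CPM in fl EAE replicates 1 to 4, from 11, 15, 26 and 11 UMIs. In NestinCre EAE replicates 1 to 4 it was at 1.60, 0.948, 1.22 and 1.62 CPM, from 5, 3, 4 and 13 UMIs, so the groups did not overlap. Ntf3 was lower by a log2 difference of -1.45 (SE 0.32, edgeR quasi-likelihood test with Benjamini-Hochberg adjusted p = 0.0388), in a class where 216 of 12159 genes (1.78%) passed. Ntf3 met the filter on low counts only through the fl EAE libraries, where it was higher. A gene kept in this way favours a lower value in NestinCre EAE, so the call is no support for that direction. The naive libraries spanned both groups, at 1.05 and 5.09 CPM in fl naive and 2.95 CPM in NestinCre naive.

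The oligodendrocyte counts were set beside the granule cell markers in the same nuclei. The 6 granule cell markers summed to 386 to 569 CPM in mature oligodendrocytes of fl EAE mice and 436 to 613 CPM in those of NestinCre EAE mice. The shares that these kept of their granule cell level, applied to Ntf3, came to a mean of 7.16 CPM in fl EAE and 4.56 CPM in NestinCre EAE, against the measured 3.86 and 1.35 CPM. Ntrk3 kept a smaller share than the markers, 1.75% to 6.27% of its granule cell level over the 11 libraries, and Ntf3 kept 2.53% to 13.6%. The comparison therefore depends on the genes taken as reference. After thinning, 0.416% and 0.0922% of mature oligodendrocytes had an Ntf3 UMI (exact two-sided permutation test, p = 0.0286, adjusted p = 1.00 over 78 tests), below the 1.25% and 0.261% of microglia, which come from 7 and 2 nuclei. The part of neuronal RNA in the oligodendrocyte values was not tested. The call was also lost with DESeq2 (adjusted p = 0.129), with doublets kept (log2 difference -1.04, adjusted p = 0.123), and whenever any library but fl EAE 4 was left out (adjusted p up to 0.132). Within run 1 the log2 difference was -1.66 (edgeR adjusted p = 0.0474).

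**Figure D4:**
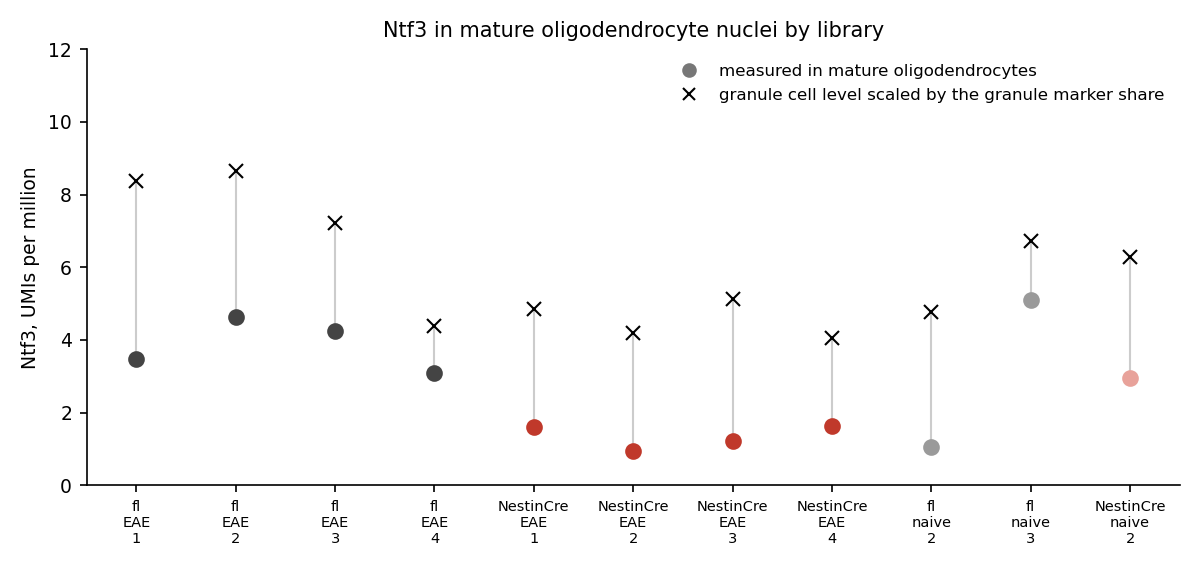
Ntf3 in mature oligodendrocytes in CPM by library, beside the level that the granule cell Ntf3 of the same library would give at the share kept by granule cell markers. The measured values, 3.10 to 4.62 CPM in fl EAE and 0.948 to 1.62 CPM in NestinCre EAE, lie below that level in all 11 libraries. That level depends on the genes taken as reference.

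In the remaining classes Ntf3 was too sparse for the comparison or did not pass it. Among classes too sparse to test, molecular layer interneurons had means of 3.40 CPM in fl EAE and 0.894 CPM in NestinCre EAE. In the same order, the means were 7.74 and 0.801 CPM in oligodendrocyte progenitors, 7.68 and 2.21 in microglia and 7.44 and 2.57 in astrocytes. Border-associated macrophages had 7.06 and 0 CPM and leptomeningeal cells 11.1 and 0 CPM. Bergmann glia (6.94 and 8.31 CPM) and Purkinje cells (1.82 and 2.10 CPM) went the other way. Unipolar brush cells, with the highest level, were at 57.4, 106, 76.4 and 40.4 CPM in fl EAE replicates 1 to 4 and at 43.4, 60.7, 57.4 and 48.2 CPM in NestinCre EAE replicates 1 to 4. Each of these rests on 5 to 11 UMIs, the groups overlapped, and the gene fell under the filter on low counts. In the Slc17a6 neuron clusters the log2 difference of Ntf3 was -0.26 (SE 0.26, and -0.54 to -0.16 with each library left out), and in the Gad1 and Gad2 neuron clusters it was 0.00 (SE 0.32). Over all kept nuclei of a library, without any class, Ntf3 was at 26.2, 25.7, 17.2 and 20.6 CPM in fl EAE and 13.9, 12.0, 17.5 and 9.66 CPM in NestinCre EAE, with overlap in 1 library of each group. The log2 difference there was -0.80 (SE 0.18, edgeR quasi-likelihood test with Benjamini-Hochberg adjusted p = 0.0505), in a sum where 606 of 18031 genes (3.36%) passed, or 158 genes without fl EAE 1. It passed with DESeq2 (adjusted p = 0.000964), with no filter on low counts (0.0357) and without fl EAE 3 (log2 difference -0.95, adjusted p = 0.00970). Granule cells made up 61.5% to 76.4% of kept nuclei in fl EAE and 56.3% to 69.5% in NestinCre EAE. The part of this mix in the Ntf3 values over all nuclei was not tested.

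Bdnf passed the test in no class. In granule cells it was at 46.7, 46.4, 46.6 and 55.2 CPM in fl EAE replicates 1 to 4 and at 57.6, 47.4, 40.8 and 46.7 CPM in NestinCre EAE replicates 1 to 4. The groups overlapped over most of their range, and the log2 difference was -0.03 (SE 0.13, edgeR adjusted p = 0.986). In the 5 classes in which it could be tested, Bdnf had log2 differences from -0.08 to 0.11. Naive granule cells had 37.6 and 39.3 CPM in fl naive and 39.2 CPM in NestinCre naive, below all 8 EAE libraries. The share of all granule cell genes that separated in this way was not computed. The granule cell markers summed to 2433 to 2639 CPM in naive and 2636 to 3022 CPM in EAE libraries, so they nearly separated too.

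The Trk receptors overlapped between the genotypes in granule cells. Ntrk2 was at 450, 422, 426 and 481 CPM in fl EAE and at 442, 425, 434 and 428 CPM in NestinCre EAE (log2 difference -0.06, SE 0.08, edgeR adjusted p = 0.943). Ntrk3 was at 1226 ± 45.8 CPM in fl EAE and 1289 ± 104.4 CPM in NestinCre EAE (log2 difference 0.06, SE 0.09, edgeR adjusted p = 0.945). Both receptors overlapped between the groups, as did the thinned shares of granule cells with a UMI, 34.6% and 33.7% for Ntrk2 and 65.8% and 67.0% for Ntrk3. Across the 12 classes tested, Ntrk3 had log2 differences from -0.21 in Bergmann glia to 0.64 in microglia, and across 11 classes Ntrk2 ranged from -0.26 in Purkinje cells to 0.17 in microglia. In Bergmann glia Ntrk3 was at 643 to 728 CPM in fl EAE and 485 to 675 CPM in NestinCre EAE, with overlapping groups. The thinned share of Bergmann glia with an Ntrk3 UMI was 49.0% ± 2.65 in fl EAE and 40.2% ± 5.31 in NestinCre EAE, lower in 4 of 4 NestinCre EAE libraries than in any fl EAE library (exact two-sided permutation test, p = 0.0286, adjusted p = 1.00 over 78 tests).

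Ntrk3 had its largest difference in microglia, where 490 of 7437 genes (6.59%) passed. Ntrk3 was at 82.5, 50.5, 83.1 and 27.4 CPM in fl EAE and at 113, 128, 63.9 and 74.1 CPM in NestinCre EAE, with overlapping groups (log2 difference 0.64, SE 0.27, edgeR adjusted p = 0.205). These values are 2.26% to 9.50% of the granule cell level over the 11 libraries, below the share kept by granule cell markers in each. With doublets kept the difference was 1.07 and passed (adjusted p = 0.00400), as it did without NestinCre EAE 3 (0.85, adjusted p = 0.0439). In mature oligodendrocytes Ntrk3 was at 42.1, 62.6, 59.8 and 21.2 CPM in fl EAE and at 82.1, 66.4, 45.1 and 54.8 CPM in NestinCre EAE, again with overlap (log2 difference 0.48, SE 0.22, edgeR adjusted p = 0.455, and 0.26 without NestinCre EAE 1).

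Sort1 was lower on average in both classes with its highest CPM, without passing the test. In microglia it was at 206, 174, 171 and 212 CPM in fl EAE and at 132, 183, 122 and 149 CPM in NestinCre EAE, where 3 of 4 libraries lay below every fl EAE library (log2 difference -0.38, SE 0.18, edgeR adjusted p = 0.274). In mature oligodendrocytes it was at 263, 248, 253 and 326 CPM in fl EAE and at 150, 211, 267 and 251 CPM in NestinCre EAE (log2 difference -0.32, SE 0.14, edgeR adjusted p = 0.453). Neither passed, and the oligodendrocyte value passed only without NestinCre EAE 3 (-0.48, adjusted p = 0.0460), while it was -0.20 (adjusted p = 0.729) without NestinCre EAE 1. In unipolar brush cells it was at 58.1 to 110.1 CPM in fl EAE and 93.8 to 139.9 CPM in NestinCre EAE from 6 to 30 UMIs each (log2 difference 0.44, SE 0.28). In granule cells, with 29.2 to 41.4 CPM in fl EAE and 31.8 to 39.6 CPM in NestinCre EAE, the log2 difference of Sort1 was 0.02 (SE 0.09).

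Ngfr was too sparse for this comparison in every class. In Purkinje cells it was at 2.22, 1.37, 4.39 and 0.650 CPM in fl EAE replicates 1 to 4, from 5 UMIs in all. In NestinCre EAE replicates 1 to 4 it was at 20.8, 3.78, 12.6 and 4.00 CPM, from 16 UMIs in all. Replicates 2 and 4 of NestinCre EAE lay below replicate 3 of fl EAE, so the groups overlapped, and most values come from 1 to 3 UMIs. The share of Purkinje nuclei with an Ngfr UMI was 2.05% ± 0.943 in fl EAE and 12.2% ± 7.63 in NestinCre EAE, higher in 4 of 4 NestinCre EAE libraries than in any fl EAE library (exact two-sided permutation test, p = 0.0286, adjusted p = 0.495 over 78 tests). The median depths of these nuclei were 9307 and 12633 UMIs, and after thinning to 1000 UMIs only 1 nucleus in each group kept an Ngfr UMI. Over all nuclei Ngfr had a log2 difference of 0.36 (SE 0.20, edgeR adjusted p = 0.660).

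**Figure D5:**
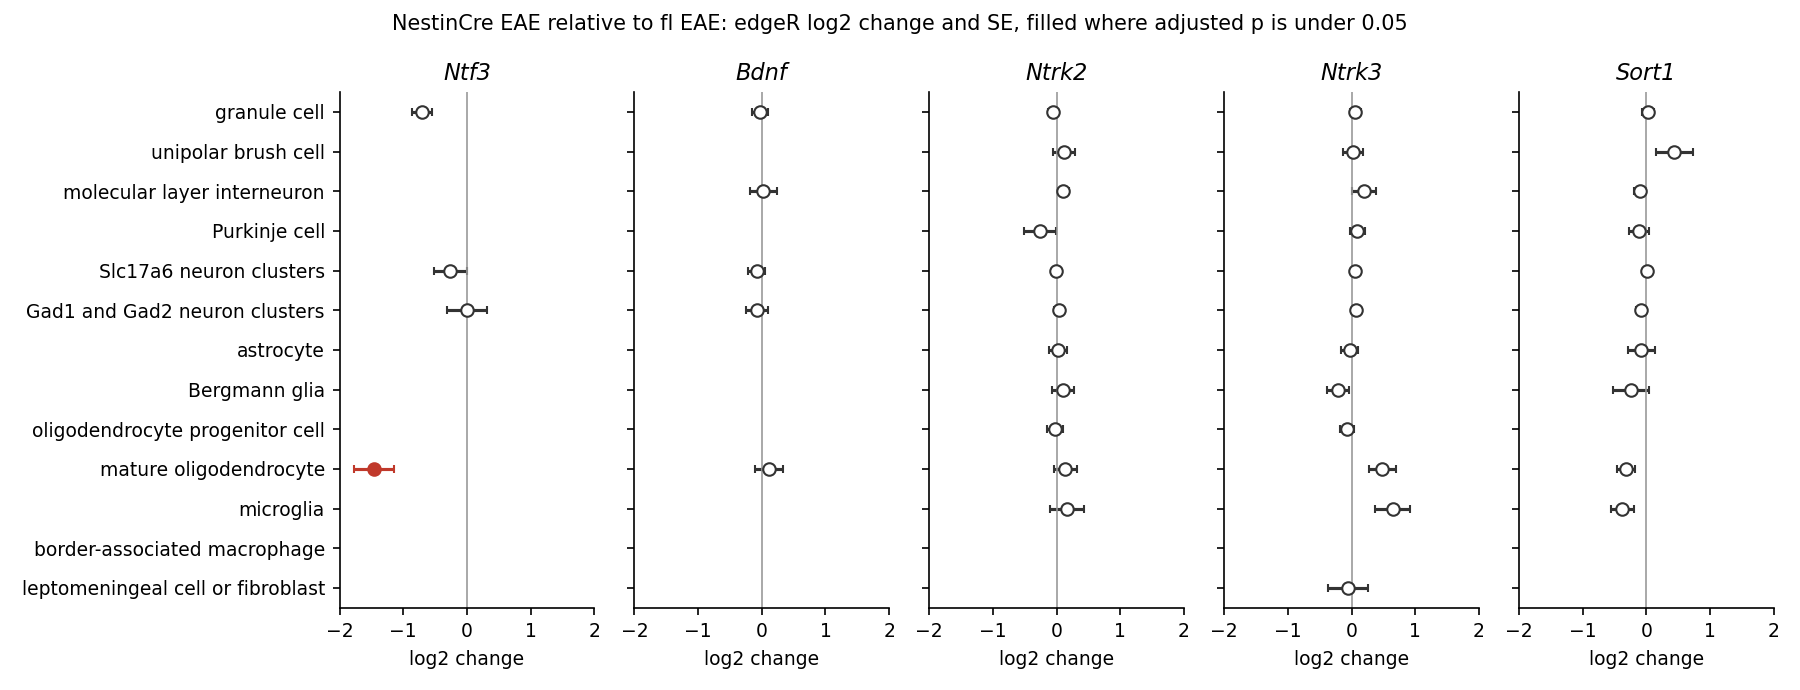
Log2 difference of each member between NestinCre EAE and fl EAE by cell class, with its standard error, where the class had enough UMIs for the test, which Ngfr had in none. The filled point, Ntf3 in mature oligodendrocytes at -1.45, passed the threshold, and Ntf3 in granule cells at -0.70 did not. The filled point met the filter on low counts only through the fl EAE libraries.

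Immunization itself was examined by comparing fl EAE with fl naive in a fit of all 11 libraries with run in the model, in which the naive side of the contrast is fl naive 2 alone, since run 3 held no EAE library. Values without the run term, which use both fl naive libraries, are given beside the main ones. None of the 54 pairs of a member and a class passed, against 0.121% of all gene and class pairs tested, and the test called none of them under any alternative, DESeq2 included, although 3 had an unadjusted p under 0.05. Bdnf in granule cells had the higher values in EAE given above (log2 difference 0.49, SE 0.23, edgeR adjusted p = 0.586, where 0% of 17152 genes passed). Without fl EAE 4, which had the highest Bdnf of its group, the log2 difference was 0.18, it reached 0.66 without NestinCre EAE 4, and it was 0.43 without the run term. Ntrk2 in astrocytes was at 1075, 885, 887 and 1026 CPM in fl EAE and at 748 and 680 CPM in fl naive, with no overlap (log2 difference 0.48, SE 0.28, and 0.48 without the run term). NestinCre naive, at 891 CPM, lay inside the fl EAE range. The share of all astrocyte genes without overlap was not computed. Ntrk2 in Bergmann glia was at 387, 474, 438 and 544 CPM in fl EAE and at 316 and 437 CPM in fl naive, so that only fl naive 2 lay below the fl EAE range. Its log2 difference was 0.75 (SE 0.38), and 0.31 without the run term. In mature oligodendrocytes, where 0.758% of genes passed, Ntf3 had a log2 difference of 1.82 (SE 0.60, edgeR adjusted p = 0.200), set by fl naive 2 at 1.05 CPM. The other fl naive library, at 5.09 CPM, lay above every fl EAE library, and without the run term the difference was 0.53 (edgeR adjusted p = 0.743). Ngfr had one of -2.42 (SE 0.81, edgeR adjusted p = 0.213), and of -1.75 without the run term. Ngfr met the filter on low counts there only through fl naive 2, where it was highest. A gene kept in this way favours a lower value in EAE, so the difference is no support for that direction.

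Ngfr in mature oligodendrocytes rested on few UMIs. It had 0.633, 0.616, 0.490 and 0.846 CPM in fl EAE from 2 or 3 UMIs each, 3.02 and 1.16 CPM in fl naive from 23 and 5 UMIs, and 2.27 CPM in NestinCre naive from 10 UMIs. The fl naive values lay above every fl EAE value, and fl naive 2 was the highest of the 11 libraries. NestinCre EAE spanned both groups at 0.305 to 1.60 CPM.

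Whether the genotype difference itself differed between EAE and naive mice was tested as an interaction, with 1 NestinCre naive library assumed to vary like the others. Its naive side is NestinCre naive 2 against fl naive 3, both of run 3. None of the 54 pairs passed (2 had an unadjusted p under 0.05), against 0.00315% of all gene and class pairs tested. Ntf3 in granule cells had an interaction of -0.74 on the log2 scale (SE 0.35, edgeR adjusted p = 1.00). In unipolar brush cells Ntf3 had one of -1.68 (SE 0.72, edgeR adjusted p = 1.00), where NestinCre naive stood at 111 CPM from 22 UMIs and fl naive at 38.8 and 42.5 CPM from 8 and 13 UMIs. The differences in EAE and in the naive state are therefore not shown to be unequal.

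Other genes of the pathway were read from a list of 64: other ligands, other receptors, Trk adaptors and signalling enzymes, p75 partners, and enzymes of precursor processing and secretion. In granule cells 61 were tested and 0 passed in the genotype comparison with edgeR (4 had an unadjusted p under 0.05), with a median log2 difference of 0.02 against -0.00 for all genes. Over the 13 classes, 4 of 546 pairs of a listed gene and a class passed as higher and 1 as lower in NestinCre EAE. Of all gene and class pairs tested, 0.856% passed as higher and 0.203% as lower, so the list was called near that rate. Genes that passed in other classes included Cadps2 and Pcsk2 in mature oligodendrocytes, Rps6ka1 in microglia and Sorcs1 in molecular layer interneurons. In these classes 1.78%, 6.59% and 0.259% of all genes passed. The medians of the list were 0.01 in mature oligodendrocytes (58 tested), -0.04 in microglia (47 tested) and 0.02 in molecular layer interneurons (61 tested), against 0.01, -0.02 and 0.01 for all genes. In the comparison of EAE with naive and in the interaction none of 629 pairs of a listed gene and a class passed with edgeR, and 45 and 28 had an unadjusted p under 0.05.

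Sorcs1, a sortilin-related receptor, rose in molecular layer interneurons of NestinCre EAE mice. It was at 177.6, 173, 138 and 217 CPM in fl EAE and at 329, 279, 262 and 274 CPM in NestinCre EAE, with no overlap (log2 difference 0.73, SE 0.12, edgeR adjusted p = 0.0136), where 0.259% of 11972 genes passed. The call was lost without fl EAE 2 (edgeR adjusted p = 0.0609). The count of genes that passed in this class, 31, ran from 21 to 75 with a library left out and was 252 with no filter. In naive libraries it was at 97.1 and 180.1 CPM in fl and 200.5 CPM in NestinCre.

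In microglia Rps6ka1, a ribosomal S6 kinase downstream of Ras, was at 222 to 338 CPM in fl EAE and 181 to 228 CPM in NestinCre EAE, with overlap in 1 library of each group. Its log2 difference was -0.55 (SE 0.15, edgeR adjusted p = 0.0374), and this call was lost under 12 of 16 alternatives, DESeq2 included (adjusted p = 0.0796).

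In mature oligodendrocytes Cadps2, a protein of dense-core vesicle release, was at 57.0 to 103 CPM in fl EAE and 112 to 220 CPM in NestinCre EAE, with no overlap. It rose by a log2 difference of 0.94 (SE 0.16, edgeR adjusted p = 0.00980), a call lost without fl EAE 1 (adjusted p = 0.0535). Pcsk2, a prohormone convertase, was at 52.7 to 92.5 CPM in fl EAE and 80.3 to 142 CPM in NestinCre EAE, with overlap between 1 library of each group. It rose by a log2 difference of 0.66 (SE 0.11, edgeR adjusted p = 0.00877), a call lost without the run term (adjusted p = 0.145). Both are neuronal secretory genes with granule cell levels of 1562 to 1988 CPM for Cadps2 and 527 to 836 CPM for Pcsk2. Their granule cell means in fl EAE and NestinCre EAE were 1861 and 1777 CPM for Cadps2 and 731 and 772 CPM for Pcsk2. Values in mature oligodendrocytes lay below the share kept by granule cell markers in 11 of 11 libraries for Cadps2 and 10 of 11 for Pcsk2. The part of neuronal RNA in these values was not tested.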

How the data were processed

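Single-nucleus RNA was measured in 11 libraries of 4 groups. The authors deposited 1 matrix of raw UMI counts per library, with no normalization. They aligned reads to GRCm39 with a GENCODE annotation using Cell Ranger and counted introns. Per the file headers the version was 7.0.0 in 6 libraries (run 1) and 6.0.2 in 5 (runs 2 and 3), while the submitters' processing notes name 6.0.2. Positions are from GENCODE vM39. The members and gene lists were chosen with earlier results of these data known.

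Nuclei needed 200 genes in run 1 or 500 in runs 2 and 3 and under 5% mitochondrial UMIs (188089 of 189709 barcodes). Scrublet's automatic threshold called 0% to 0.108% of nuclei, so the highest-scoring 0.8% per 1000 barcodes was removed (10.5% to 18.4%). Clusters (scanpy 1.11.5, 3000 variable genes, 40 components, Harmony, 123 Leiden clusters) took a name from at least 3 markers at 20 CPM and 2 times the median cluster, and 1.25% of nuclei stayed unnamed. UMIs were summed per library and class, for the 13 classes with at least 10 nuclei in every library, and the sums went to the quasi-likelihood test of edgeR 4.0.16 (R 4.3.3, TMM factors, filterByExpr, Benjamini-Hochberg over all genes tested in a class, threshold 0.05). The genotype comparison used 8 EAE libraries with run as a term. EAE against naive and the interaction used a fit of 11 libraries. DESeq2 1.42.0 was an alternative. Shares of nuclei were taken after thinning to 1000 UMIs and compared by exact permutation over 70 assignments. Scripts were tested on simulated data. Named genes were the 6 members, the pathway genes called between genotypes, the 3 genes most like each member, and the marker lists. A few genes that this rule names are not reported here. Standard errors were taken from the quasi-likelihood F. Same-numbered replicates of run 1 did not deviate together, so numbers were not used as pairs.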

Additional observations from a re-analysis of the deposited data

Results flagged for a closer look

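Of 84 groups of 4 libraries checked for the members, 1 held a library that stood far from the other 3, where chance alone gives about 4.2. Bdnf in granule cells of fl EAE replicate 4 was at 55.2 CPM (2186 UMIs), while the other 3 libraries lay between 46.4 and 46.7 CPM, a gap of 0.962 of the group's range. This library was the fl EAE library of run 2. No member had an interaction of genotype and EAE that passed the threshold.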

How the results depend on the processing

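Each result was recomputed with other size factors, DESeq2, no filter, no run term, doublets kept, nuclei of 6000 or more UMIs left out, the replicate block, run 1 alone and each library left out, and 783 of 833 values kept their direction and their side of the threshold. These cover differences at least as large as their SE. Over all member differences, smaller ones included, 94 of 749 values between genotypes and 52 of 927 between EAE and naive had the opposite sign, and 0 of these passed with edgeR or DESeq2. The count of 1 member called between genotypes became 2 with no filter, 0 without the deep nuclei and 0 to 3 when a library was left out, the 3 without NestinCre EAE 3 being Ntf3 in granule cells, Ntrk3 in microglia and Sort1 in mature oligodendrocytes. Ntf3 in granule cells (-0.70) passed with DESeq2 (-0.70) and no filter (-0.71), and ran from -0.87 to -0.58 with a library left out. Ntf3 in mature oligodendrocytes (-1.45) did not pass with DESeq2 (-1.50) or doublets kept (-1.04), ran from -1.67 to -1.32 with a library left out, and was not tested without the deep nuclei, where it fell under the filter. The thinned share of granule cells with an Ntf3 UMI differed by -1.79 to -1.20 percentage points with a library left out. Among differences at least as large as their SE, those that turned sign between genotypes were Ntrk2 in Purkinje cells (0.14 in run 1 alone, without fl EAE 4 and without NestinCre EAE 4, and -0.54 to 0.14 with each library left out) and Ntrk3 in the Gad1 and Gad2 clusters (-0.030 without the deep nuclei). Between EAE and naive they were, without fl EAE 4, Bdnf in molecular layer interneurons (-0.026, and up to 0.91 without another library), Ntrk2 in mature oligodendrocytes (0.034, and down to -0.72) and Sort1 in all nuclei (0.052, and down to -0.41). With no run term they were Ntrk2 in leptomeningeal cells (0.34) and Sort1 in unipolar brush cells (-0.16) and the Slc17a6 clusters (-0.044), and without the deep nuclei Ntrk2 (-0.071) and Sort1 (-0.036) in the Slc17a6 clusters. The cause of these changes was not tested. With the replicate block no member was called (0), Ntf3 was at -0.72 in granule cells (adjusted p = 0.188) and -1.45 in mature oligodendrocytes (edgeR adjusted p = 0.122), and 47 genes passed in granule cells against 214. Same-numbered libraries of run 1 had deviation correlations of -0.16 to -0.04 in granule cells, so the number was not taken as a pairing. Called genes ranged from 3 (without fl EAE 1) to 352 in granule cells, 133 (without fl EAE 1) to 428 in mature oligodendrocytes and 319 (without fl EAE 2) to 748 in microglia, the highest each with no filter, and DESeq2 called 351 in granule cells. Between EAE and naive, mature oligodendrocytes had 0 without the run term and 286 with no filter against 103. The fit without fl naive 2 could not be estimated with the run term. Ngfr in all classes, and Ntf3 outside granule cells, were limited by few UMIs.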

Other observations

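Classes with too few nuclei for the tests were pooled over libraries, with exact Poisson intervals at the 95% level that cover counting error only. Monoaminergic neurons, a class with serotonin and noradrenaline markers, had 13.6 CPM of Ntf3 (9.65 to 18.7, 38 UMIs in 193 nuclei), 567 CPM of Ntrk2 and 678 CPM of Ntrk3, and no Ngfr UMI. Cholinergic neurons, from 27 nuclei, had 455 CPM of Ntrk2 (407 to 507) and 667 CPM of Ntrk3 (609 to 729). Choroid plexus cells, which make cerebrospinal fluid, had 353 CPM of Ntrk2 (268 to 456) and 158 CPM of Sort1 (103 to 232), and 24.3 CPM of Ngfr (6.63 to 62.3) from 4 UMIs. Endothelial cells had 159 CPM of Sort1 (116 to 214) and 14.5 CPM of Ngfr (3.94 to 37.1) from 4 UMIs.

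Along the oligodendrocyte lineage, newly formed oligodendrocytes (141 nuclei) had 26.1 CPM of Sort1 (15.5 to 41.2) and 207 CPM of Ntrk3 (175 to 244). Sort1 in these nuclei was thus near the 19.6 CPM of progenitors and under the 261 CPM of mature oligodendrocytes, while Ntrk3 lay between the 801 CPM of progenitors and the 54.5 CPM of mature cells. Neutrophil nuclei had 688 CPM of Ntrk3 (622 to 759, 396 UMIs in 426 nuclei), and the larger of their clusters (300 nuclei) had Cped1, Slc7a11, Ranbp3l and Slc6a20a, which also led a leptomeningeal cluster, among its leading genes. The part of RNA from neurons or leptomeningeal cells in this value was not tested.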
